A study of Mus musculus with 30 samples.

Results

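The genes described here are the transcription factors of the naive pluripotency network, followed by RNA-seq as mouse iPSCs left the naive state and after they were re-seeded with or without OSKM. The 8 members, Nanog, Esrrb, Tfcp2l1, Tbx3, Nr5a2, Nr0b1, Prdm14 and Zfp42, were chosen by name, and all 8 were found among the 22477 genes of the expression table. Each had 1 value in each of 15 conditions, in FPKM (fragments per kilobase of transcript, scaled to the mapped fragments of the library), a unit that divides by transcript length and so allows levels to be compared between genes.

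All conditions came from secondary iPSCs that carry dox-inducible Oct4, Sox2, Klf4 and c-Myc transgenes (OSKM), a constitutive nuclear RFP and a GFP that replaces 1 allele of Nanog. None of the 8 members is itself a transgene, but Nanog is read from a locus with 1 allele altered in every condition. The cells were kept on MEF feeders in serum/LIF, moved to 2i/LIF (CHIR99021, which inhibits GSK3, and PD0325901, which inhibits MEK, with the cytokine LIF), and differentiated in N2B27 medium without 2i and LIF. RNA was taken at 0, 24, 36, 48, 60, 72 and 96 h of withdrawal. Cells differentiated for 0, 24, 48 or 96 h were also plated again in serum/LIF, and dox (2 µg/ml) was either left out (–dox) or added (+dox). Per the paper, expression in these cells was read 48 h into induction, with matched –dox controls. Re-seeded cells therefore differ from the end of withdrawal by 48 h of further culture as well as by medium. The 15 conditions had 2 replicates each, 30 samples in all, but the deposited value of a condition combines both. No value therefore has an error or a test, and the spread between replicates cannot be set beside any difference given here. For the same reason, neighbours in an order of levels cannot be told apart or called equal. A gene is called higher or lower where its values differ by at least 2-fold and the higher reaches 1 FPKM.

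The naive network is a set of transcription factors that activate each other's genes and are held on by LIF through Stat3, by GSK3 inhibition through relief of Tcf7l1 repression, and by MEK inhibition. It marks the preimplantation epiblast and ground-state stem cells, and its loss is the first step towards the formative and primed states. The members have separate roles in it. Nanog is a homeobox factor that makes self-renewal less dependent on LIF. Esrrb is an orphan nuclear receptor and a target of Nanog and of Tcf7l1. Tfcp2l1 is a grainyhead-family factor downstream of LIF and GSK3 inhibition. Tbx3 is a T-box factor that acts on the Akt side of LIF signalling. Nr5a2 is a nuclear receptor that binds regulatory DNA of Oct4 and of Nanog. Nr0b1 (Dax1) is a receptor-like protein without the usual DNA-binding domain that acts as a corepressor. Prdm14 is a PR-domain zinc finger protein that represses Fgf receptor signalling and the de novo DNA methyltransferases. Zfp42 (Rex1) is a zinc finger protein that has long served as a marker of the naive state.

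On mm10, Nanog lies on the plus strand of chromosome 6 from 122707489 to 122714633, and Esrrb on the plus strand of chromosome 12 from 86361117 to 86521628. Chromosome 1 holds 3 members, Tfcp2l1 on the plus strand from 118627945 to 118685168, Nr5a2 on the minus strand from 136842571 to 136960448 and Prdm14 on the minus strand from 13113457 to 13127163. Tbx3 lies on the plus strand of chromosome 5 from 119670669 to 119684724, Zfp42 on the minus strand of chromosome 8 from 43295063 to 43306980, and Nr0b1 on the plus strand of the X chromosome from 86191764 to 86195947. Tbx3 overlaps an antisense gene, Tbx3os1, that is also in the table, and the strand setting of the counting was not stated, so reads of the 2 genes may not be separable. Nanog has 2 annotated processed pseudogenes and Zfp42 has 1, none of them in the table.

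RefSeq promoters of GRCm38.p6, from 250 bases before to 50 after a start, were matched for 6 of the 8 members (9 promoters). They are shown because the members moved together, and because 3 of the transgenes encode factors whose motif cores could be looked up. The 250 bases before the start follow for Nanog (chr6:122707239-122707488, plus strand), Zfp42 (chr8:43307010-43307259, minus strand), Tfcp2l1 (chr1:118627695-118627944, plus strand) and Nr0b1 (chrX:86191525-86191774, plus strand), each 5′ to 3′ on the gene's strand. Capitals mark matches, on either strand, to the motif cores spelled out after them.
Nanog: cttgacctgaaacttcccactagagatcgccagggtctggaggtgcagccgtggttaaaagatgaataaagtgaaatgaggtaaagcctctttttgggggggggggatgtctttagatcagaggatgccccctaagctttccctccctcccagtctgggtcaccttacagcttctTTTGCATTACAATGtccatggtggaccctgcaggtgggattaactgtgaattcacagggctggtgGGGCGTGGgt
Zfp42: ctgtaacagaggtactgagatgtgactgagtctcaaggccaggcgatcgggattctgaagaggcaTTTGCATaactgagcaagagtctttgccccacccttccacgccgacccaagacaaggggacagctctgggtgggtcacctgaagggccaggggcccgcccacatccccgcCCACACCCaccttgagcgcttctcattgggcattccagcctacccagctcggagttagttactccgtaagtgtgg
Tfcp2l1: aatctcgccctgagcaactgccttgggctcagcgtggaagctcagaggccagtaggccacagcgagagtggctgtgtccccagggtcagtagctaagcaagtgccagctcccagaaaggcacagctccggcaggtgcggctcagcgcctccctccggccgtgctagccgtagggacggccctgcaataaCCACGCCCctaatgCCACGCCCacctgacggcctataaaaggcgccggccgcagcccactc
Nr0b1: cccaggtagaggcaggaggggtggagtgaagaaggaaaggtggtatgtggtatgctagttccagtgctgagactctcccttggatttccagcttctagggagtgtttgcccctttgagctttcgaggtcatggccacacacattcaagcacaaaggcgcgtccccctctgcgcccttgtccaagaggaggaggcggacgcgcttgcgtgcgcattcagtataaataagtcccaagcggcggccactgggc

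In the Nanog promoter the first block of capitals is the Pou core TTTGCAT, 1 further base and the Sox core ACAATG. The composite, searched as TTTGCAT, any 1 base and ACAAT, covers bases -75 to -63 from the start, and the Sox core overlaps it. It was found in 6 of 19012 promoters of the table's genes (0.0316%). Of these, 2 are the windows of the RefSeq starts of Nanog, which overlap and hold the same site. The Pou core alone was in 3.83% of promoters and, among the members, also in Zfp42 at bases -185 to -179. The Sox core was in 9.14% of promoters and in those of Nanog and Esrrb, the latter past the start. The Klf core GGGNGTGG was in 21.4% of promoters and in those of Nanog, Zfp42, Tfcp2l1 and Nr5a2. Tfcp2l1 holds it at bases -61 to -54 and -47 to -40, both on the opposite strand. None of the 9 promoters held the nuclear receptor cores AAGGTCA (3.83% of promoters) and TCAAGGTCA (0.295%), the Tcf core CTTTGAT (2.95%) or the Stat core TTCCNGGAA (1.18%), and the Nr0b1 window held no core of the search. A match describes letters in these windows and no binding was measured here.

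In 2i/LIF the 8 members covered about an order of magnitude in level. Nanog stood at 227 FPKM, Zfp42 at 201, Esrrb at 149.9 and Tfcp2l1 at 124. The second tier, Tbx3 at 51.5, Nr5a2 at 48.0 and Nr0b1 at 43.5 FPKM, lay below them, and Prdm14 was lowest at 18.8 FPKM. Summed over the members, the level was 864 FPKM. By 96 h of withdrawal the sum was 29.1 FPKM, 3.37% of the 0 h level. Nanog (14.5 FPKM) and Zfp42 (7.44 FPKM) were then the highest, and Nr0b1, Nr5a2 and Prdm14 were each under 1 FPKM. Core pluripotency markers were present at the start, with Pou5f1 (Oct4) at 199 and Sox2 at 248 FPKM at 0 h. In bulk RNA, fewer cells that express a gene and less RNA per cell cannot be told apart.

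**Figure D1:**
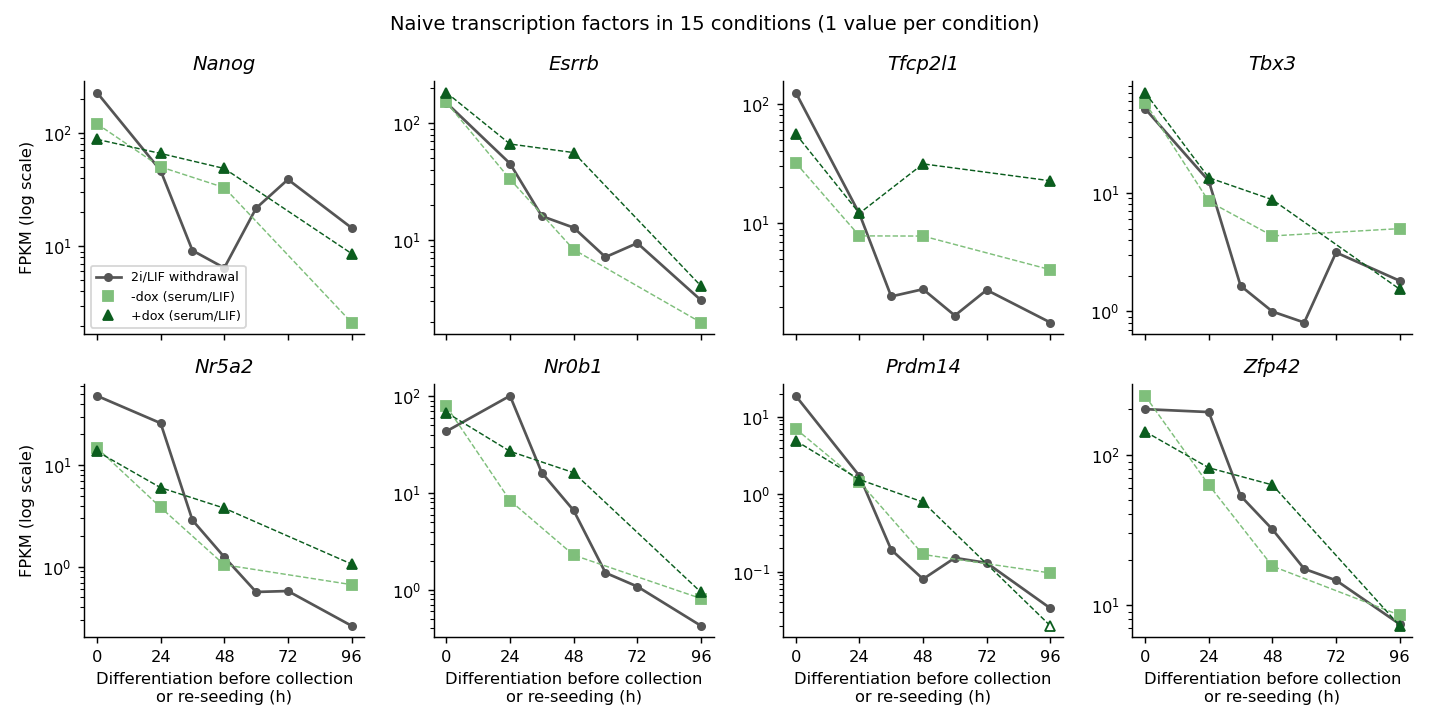
FPKM of each member (log scale, axes differ between panels) against hours of differentiation, at the end of withdrawal (circles) and after re-seeding in serum/LIF without dox (squares) or with dox (triangles). There is 1 value per condition and no error bar, dashed lines only join re-seeded conditions, and the open triangle is Prdm14 listed at 0 in 96 h +dox. Every member was lower at 96 h than at 0 h in all 3 series, and Tfcp2l1 kept 22.7 FPKM in 96 h +dox.

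The libraries differed in depth. The lowest steps between values put a 2 kb gene at 1 FPKM at 28.6 to 38.2 steps in the withdrawal course and in cells re-seeded from 48 or 96 h, and at 70.1 to 95.3 steps in cells re-seeded from 0 or 24 h. Steps are not counts, since a value combines 2 replicates. They bear most on Prdm14, which stood at 747 steps at 0 h and 80.7 at 24 h but at 1.52 to 7.05 steps from 36 to 96 h. Differences of Prdm14 among those late timepoints were not detectable at this depth. The cells had been grown on MEFs before gelatin, and fibroblast transcripts were high at 0 h. Col1a1 was at 229 FPKM at 0 h, 21.0 at 24 h and 1.45 in 0 h –dox, and Col3a1 at 201, 12.0 and 0.116 FPKM. Of the 10 fibroblast markers, 7 were called lower at 24 h than at 0 h. Their part in the 0 h values of the members was not tested.

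Loss of the members during withdrawal came in an early and a later group. By 24 h, 5 of the 8 members were called lower than at 0 h, against 14.3% of all genes tested. Prdm14 fell from 18.8 to 1.73 FPKM (10.8-fold), Tfcp2l1 from 124 to 12.1 FPKM (10.3-fold), Nanog from 227 to 46.5 FPKM (4.88-fold), Tbx3 from 51.5 to 12.6 FPKM (4.08-fold) and Esrrb from 149.9 to 45.3 FPKM (3.31-fold). The other 3 members did not pass. Nr5a2 stood at 48.0 and 25.8 FPKM, a 1.86-fold difference. Zfp42, the marker most often used to follow exit from the naive state, was at 201 and 192 FPKM. Nr0b1 went the other way and was called higher, from 43.5 to 101 FPKM (2.33-fold), against 8.64% of genes. The median log2 ratio of the members, with 0.1 FPKM added, was -1.87, and that of all genes tested was -0.01.

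Between 24 and 36 h every member was called lower, 8 of 8 against 6.28% of all genes tested. This interval took Nr0b1 from 101 to 16.2 FPKM (6.24-fold) and Nr5a2 from 25.8 to 2.87 FPKM (8.99-fold). Zfp42 fell from 192 to 53.2 FPKM (3.61-fold) and Prdm14 from 1.73 to 0.192 FPKM (9.01-fold). Esrrb had the smallest ratio of the 8, from 45.3 to 16.1 FPKM (2.82-fold). Nanog was at 9.18, Tfcp2l1 at 2.45 and Tbx3 at 1.64 FPKM by 36 h. Summed, the members dropped from 437 to 102 FPKM in this interval, or from 50.6% to 11.8% of the 0 h sum.

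Interpolated in a straight line between timepoints, 50% of the 0 h value was reached at 13.2 h by Prdm14, 13.3 h by Tfcp2l1, 15.1 h by Nanog, 15.9 h by Tbx3 and 17.2 h by Esrrb. No sample lies between 0 and 24 h, so the order within these 5 rests on the 24 h values alone. Their times depend on the straight line assumed and were not measured. Nr5a2 crossed at 25.0 h, Zfp42 at 31.9 h and Nr0b1 at 35.2 h, all between the 24 and 36 h samples. The order at 10% of the 0 h value was not the same. Nr5a2 reached it at 35.0 h, before Esrrb at 40.0 h, while Nr0b1 and Zfp42 were last at 53.3 and 57.7 h. Of the 5 early members Esrrb was thus the slowest to reach 10%. Nr5a2, a nuclear receptor like Esrrb, was already at 53.8% of its 0 h value by 24 h, just short of a call, so its place in the later group rests on the 2-fold limit.

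**Figure D2:**
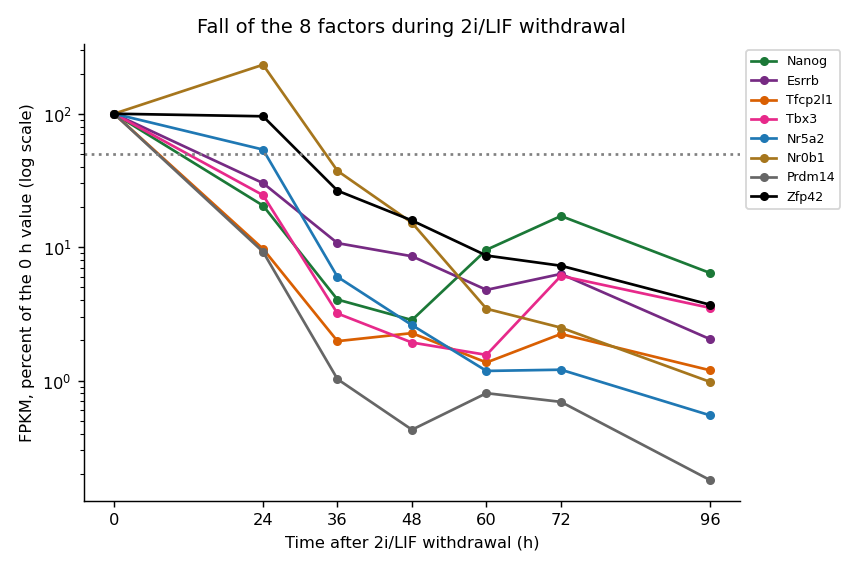
FPKM of each member as a percent of its 0 h value (log scale) at the 7 timepoints of withdrawal, with the dotted line at 50%. Nr0b1 and Zfp42 lie above the line at 24 h with Nr5a2, all members lie below it from 36 h on, and Nanog and Tbx3 turn upwards between 48 and 72 h.

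At 48 h all 8 members were called lower than at 0 h, against 17.0% of genes, and at 96 h again all 8, against 16.4%. Each passed the 1 FPKM minimum through its 0 h value, so these counts are a description. The comparisons with 0 h share that condition. Taken from 24 h with 0 h left out, a comparison chosen after the data were seen, 8 members were also called lower at 48 h and 8 at 96 h. The ratio of 0 h to 48 h ran from 6.31-fold for Zfp42 (31.8 FPKM at 48 h) and 6.57-fold for Nr0b1 (6.61 FPKM) to 51.9-fold for Tbx3 (0.994 FPKM) and 234-fold for Prdm14 (0.0803 FPKM, 2.94 steps). The members' median log2 ratio to 0 h was -5.14 by 48 h and -5.93 by 96 h, with -0.02 for all genes tested in both comparisons.

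Nanog did not stay at its low. At 48, 60, 72 and 96 h its FPKM was 6.45, 21.7, 38.9 and 14.5 in that order. From 48 to 72 h, 2 of the 7 members that reached 1 FPKM were called higher, against 9.81% of genes. These were Nanog (6.02-fold) and Tbx3, which passed from 0.994 through 0.803 to 3.14 FPKM over the 48, 60 and 72 h samples (3.16-fold). At 72 h Nanog was at 17.1% of its 0 h value and Tbx3 at 6.09%. Over the same interval 3 members were called lower, against 7.01% of genes. Nr0b1 fell from 6.61 to 1.08 FPKM. Nr5a2 (1.25 to 0.578 FPKM) and Zfp42 (31.8 to 14.6 FPKM) were near the threshold, and both calls were lost with the conditions scaled to the same sum, that of Nr5a2 also with 0.1 or 1 FPKM added. Esrrb, at 12.8 and 9.44 FPKM, and Tfcp2l1, at 2.82 and 2.78 FPKM, were not called. The later rise was seen in 2 of the members. Of 20 other naive or pluripotency-associated genes, 0 of the 19 tested were called higher and 2 lower from 48 to 72 h. Markers of other cell types moved in the same interval. The primitive streak and mesendoderm list, a territory in which Nanog is also expressed, had sums of 3.85 and 6.12 FPKM in the 48 and 72 h samples, with 1 of 2 tested markers, Fgf8, called higher and Eomes at 1.20 and 0.762 FPKM. The extraembryonic endoderm list summed to 6.78 and 24.4 FPKM, with 2 of 3 tested markers, Gata4 and Dab2, called higher. The neurectoderm list summed to 19.6 and 32.6 FPKM, with 2 of 4 tested markers, Sox1 and Pax6, called higher. The trophoblast list summed to 9.75 and 16.2 FPKM, with 2 of 4 higher and 1 lower. Of 7 germ cell markers 1 was higher and 1 lower, and of 9 fibroblast markers 0 were higher and 7 lower. The part of these markers in the rise of Nanog and Tbx3 was not tested.

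The 20 other naive or pluripotency-associated genes divided differently from the members. At 24 h 7 were called lower (14.3% of all genes), among them Klf2 (197 to 69.5 FPKM) and Klf4 (92.7 to 23.3 FPKM), which are Kruppel-like factors of the same network, and Dppa3 (168 to 13.6 FPKM). At the same time 5 were called higher (8.64% of all genes), including Utf1 (62.5 to 613 FPKM) and Dppa4 (40.6 to 136 FPKM). At 96 h 16 of the 20 were lower than at 0 h (16.4% of all genes) and 2 higher (16.8%). Fgf4 (82.6 to 79.1 FPKM) and Fbxo15 (121 to 92.5 FPKM) were, like Zfp42, not called at 24 h. Spic was closest to Prdm14 in size of fall, from 19.4 to 1.85 FPKM by 24 h.

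Of 14 genes that read out the pathways upstream of the network, 4 were higher and 3 lower at 24 h than at 0 h, beside the same shares of all genes. The higher ones were the ERK targets Dusp6 (3.61 to 29.6 FPKM), Spry4 (0.446 to 13.9 FPKM) and Egr1 (0.614 to 11.2 FPKM), and Lef1 (7.40 to 25.4 FPKM), which is also on the formative list. The lower ones were Socs3, the Stat3 target that limits LIF signalling (43.5 to 19.6 FPKM), Il6st, a LIF receptor subunit, and the Wnt target Axin2 (23.7 to 5.00 FPKM). The rest were not called. Of these, the LIF receptor gene Lifr (9.55 to 17.0 FPKM), Tcf7l1, Ctnnb1, Spry2, Etv4 and Etv5 (106 to 122 FPKM) had the higher value at 24 h. Stat3 (30.7 to 23.7 FPKM) had the lower. All 10 genes of a formative list were called higher at 24 h, against 8.64% of all genes, among them Dnmt3b (26.8 to 260 FPKM), a de novo methyltransferase. At 36 h, when every member was lower, Dnmt3b was at 549 FPKM and Fgf5 at 35.1 FPKM.

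Tfcp2l1, Nr5a2 and Prdm14 stood lower in serum/LIF than in 2i/LIF before any differentiation. In undifferentiated cells re-seeded in serum/LIF (0 h –dox), 3 of 8 members were called lower than in 2i/LIF, against 10.1% of genes. Tfcp2l1 was at 32.1 FPKM against 124 (3.87-fold), Nr5a2 at 14.8 against 48.0 (3.25-fold) and Prdm14 at 7.03 against 18.8 (2.67-fold). Nanog was at 120.3 against 227 FPKM and did not reach 2-fold. Esrrb stood at 151 against 149.9 FPKM, and Tbx3 (58.1 against 51.5 FPKM) and Zfp42 (246 against 201 FPKM) were not called. Nr0b1 stood at 79.1 against 43.5 FPKM, also short of 2-fold, which it passed with the conditions scaled to the same sum. The members thus split within the network, with the early-falling Tfcp2l1 and Prdm14 called lower in serum/LIF and the early-falling Esrrb and Tbx3 not called. The fibroblast markers move with this comparison, since 9 of 10 were lower in 0 h –dox (sum 1243 FPKM in 2i/LIF and 101 in serum/LIF). Their part in the 3 lower values was not tested.

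Return to serum/LIF after differentiation had not brought the members back as a group by the time RNA was taken. Compared with the cells at the end of 24 h of withdrawal, 0 of 8 members were called higher in 24 h –dox, against 14.9% of genes, and 3 were called lower, against 10.6%. Nr0b1 went from 101 to 8.37 FPKM (12.1-fold), Nr5a2 from 25.8 to 3.84 FPKM (6.74-fold) and Zfp42 from 192 to 62.9 FPKM (3.05-fold). These are the 3 members that had been late to fall. That group was set by the same 24 h values that serve as the reference here, so the overlap is a description. Nanog stood at 46.5 FPKM before and 50.1 after re-seeding, and Prdm14 at 1.73 and 1.46 FPKM.

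After 48 h of differentiation, 3 of the 7 members that reached 1 FPKM were called higher in 48 h –dox than at the end of withdrawal, against 15.3% of genes, and 1 was called lower, against 11.5%. Nanog rose from 6.45 to 32.9 FPKM (5.11-fold), Tbx3 from 0.994 to 4.33 FPKM (4.36-fold) and Tfcp2l1 from 2.82 to 7.84 FPKM (2.78-fold). Nr0b1 fell from 6.61 to 2.29 FPKM (2.89-fold). Esrrb was at 12.8 and 8.31 FPKM, Nr5a2 at 1.25 and 1.05 FPKM and Zfp42 at 31.8 and 18.1 FPKM, none of them called. Nanog and Tbx3 were also the members that rose in N2B27 between 48 and 72 h, a comparison that shares the 48 h condition. Of the 14 upstream genes, 2 were called higher in the same comparison, Socs3 (6.07 FPKM before and 21.3 FPKM after) and Axin2, and 4 lower, the LIF receptor gene Lifr (4.55 and 1.98 FPKM), Lef1, Etv4 and Etv5. Markers of other cell types moved with it. All 5 tested primitive streak and mesendoderm markers were called higher (list sum 3.85 FPKM before and 23.0 FPKM after), as were 4 of 5 tested trophoblast markers (9.75 and 40.0 FPKM), and their part in the rise of Nanog, Tbx3 and Tfcp2l1 was not tested.

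After 96 h, 2 of 5 members tested were called higher in 96 h –dox than at the end of withdrawal, against 12.4% of genes, and 1 lower, against 11.2%. Tfcp2l1 went from 1.48 to 4.11 FPKM and Tbx3 from 1.81 to 4.99 FPKM (2.76-fold each). Nanog fell from 14.5 to 2.13 FPKM (6.84-fold), its lowest value of the 15 conditions. Tbx3 is also expressed outside pluripotent cells, and 8 of 8 trophoblast markers were higher in 96 h –dox than at 96 h (sum 32.0 FPKM at 96 h and 337 FPKM in 96 h –dox). Their part in the Tbx3 and Tfcp2l1 values was not tested.

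**Figure D3:**
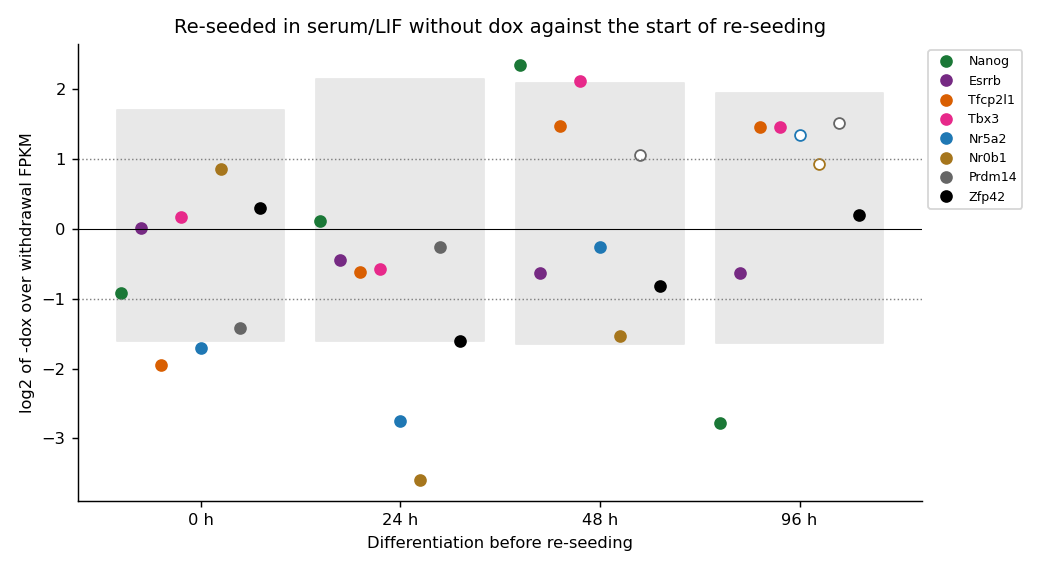
log2 ratio of FPKM in –dox re-seeded cells over the matched end of withdrawal for each member, by hours of differentiation. Grey boxes span the 5th to 95th percentile of all genes that reached 1 FPKM, dotted lines mark 2-fold, and open points are members under 1 FPKM in both conditions. Nr0b1 (-3.60) and Nr5a2 (-2.75) lie below the box at 24 h, as do Tfcp2l1 (-1.95) and Nr5a2 (-1.70) at 0 h and Nanog (-2.77) at 96 h, while Nanog (2.35) and Tbx3 (2.12) lie above it at 48 h.

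Set against undifferentiated cells in the same medium, every member was lower after 24, 48 and 96 h of differentiation before re-seeding. With 0 h –dox as the reference, all 8 were called lower after 24 h of differentiation (11.4% of genes), all 8 after 48 h (17.4% of genes) and all 8 after 96 h (21.7% of genes). These comparisons share the 0 h –dox condition, and the members passed the minimum through it. In 24 h –dox the members held between 10.6% (Nr0b1) and 41.7% (Nanog) of their 0 h –dox level. In 48 h –dox Nanog held 27.4% and Tfcp2l1 24.4%, and the other 6 held between 2.38% (Prdm14) and 7.45% (Tbx3). In 96 h –dox Tfcp2l1 held the most at 12.8%, and Nanog was at 1.77%. The order was not the same for every member, since Tfcp2l1 stood at 7.87 and 7.84 FPKM after 24 and 48 h and Tbx3 at 4.33 and 4.99 FPKM after 48 and 96 h. Without dox the members summed to 709, 176, 75.0 and 23.3 FPKM after 0, 24, 48 and 96 h of differentiation.

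The number of members called higher with OSKM was 0, 2, 6 and 3 after 0, 24, 48 and 96 h of differentiation, and the differences between these responses were not tested. In undifferentiated cells 0 of 8 members were called higher in 0 h +dox than in 0 h –dox, against 3.62% of genes, and 0 were called lower, against 5.61%. Tfcp2l1 stood at 56.0 against 32.1 FPKM and Zfp42 at 142 against 246 FPKM, the widest differences of the 8 and both under 2-fold, which Zfp42 passed with the conditions scaled to the same sum. Esrrb was at 183 against 151 FPKM and Nanog at 87.8 against 120.3 FPKM.

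After 24 h of differentiation, 2 of 8 members were called higher in +dox, against 2.87% of genes. Nr0b1 was at 27.0 FPKM with dox and 8.37 without (3.23-fold). Esrrb, at 66.5 and 33.2 FPKM, lay on the 2-fold threshold itself, and its call was lost with either scaling of the conditions or with 0.1 or 1 FPKM added. All 8 values were higher with dox, but the other 6 were under 2-fold, Prdm14 being at 1.55 and 1.46 FPKM.

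After 48 h of differentiation, 6 of the 7 members that reached 1 FPKM were called higher in +dox than in –dox, against 6.56% of genes. The 3 nuclear receptor genes all rose. Nr0b1 was at 16.3 FPKM with dox and 2.29 without (7.11-fold), Esrrb at 56.2 and 8.31 FPKM (6.75-fold), and Nr5a2 at 3.77 and 1.05 FPKM (3.60-fold). Tfcp2l1 was at 31.5 and 7.84 FPKM (4.01-fold) and Zfp42 at 62.9 and 18.1 FPKM (3.47-fold). Tbx3, at 8.76 and 4.33 FPKM, was just past the threshold at 2.02-fold, and its call was lost with the conditions scaled to the same sum or with 0.1 or 1 FPKM added. Nanog, the gene whose GFP reporter is used to follow pluripotent cells, was at 48.6 and 32.9 FPKM (1.47-fold) and was not called. Nanog also had the highest –dox level of the members relative to 0 h –dox. Prdm14 was at 0.794 and 0.167 FPKM (30.9 and 6.32 steps) and was not tested. The median log2 ratio of the members was 1.79, and that of all genes tested was -0.02. Markers of some other cell types were lower in the same comparison, against 6.46% of all genes. All 5 tested primitive streak and mesendoderm markers were called lower (list sum 23.0 FPKM without and 3.43 FPKM with dox), as were 3 of 5 tested trophoblast markers (40.0 and 24.3 FPKM). Other lists were mixed. Of 4 tested extraembryonic endoderm markers 1 was called higher and 2 lower, and of 8 fibroblast markers 2 were higher and 4 lower. Of 7 germ cell markers 2 were higher and 0 lower, and 0 of 2 neurectoderm markers were called. The part of these markers in the members' values was not tested.

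Set against the end of 48 h of withdrawal, 6 of 7 members tested were called higher in 48 h +dox, against 14.8% of genes. Tfcp2l1 was at 2.82 FPKM at the end of withdrawal and 31.5 FPKM in 48 h +dox (11.2-fold), Nanog at 6.45 and 48.6 FPKM (7.53-fold), and Esrrb at 12.8 and 56.2 FPKM (4.38-fold). Tbx3 (8.82-fold), Nr5a2 (3.02-fold) and Nr0b1 (2.46-fold) were also called. Zfp42, at 31.8 and 62.9 FPKM, was just short of 2-fold at 1.98-fold. Relative to undifferentiated cells in the same medium (0 h –dox), recovery was uneven. Tfcp2l1 in 48 h +dox was at 98.1% of its 0 h –dox level, Nanog at 40.4% and Esrrb at 37.1%. Nr5a2 was at 25.6%, Zfp42 at 25.5%, Nr0b1 at 20.5%, Tbx3 at 15.1% and Prdm14 at 11.3%. Tfcp2l1 was the only member near its undifferentiated level in 48 h +dox, and that level is the serum/LIF one, below its 124 FPKM in 2i/LIF. The 20 other naive or pluripotency-associated genes were compared between 48 h +dox and 48 h –dox. There 9 of 19 tested were called higher (6.56% of all genes) and 0 lower (6.46%), with a median log2 ratio of 0.94. These included the transgene-encoded genes Klf4, Sox2 and Pou5f1, whose endogenous and transgene reads were not separated here. Without them, 6 were called, namely Dppa3, Fgf4, Tcl1, Fbxo15, Pecam1 and Tet2. With the same matched –dox cells as reference, 1 of the 10 formative genes was called higher (6.56% of all genes) and 4 lower (6.46%). Relative to the end of 48 h of withdrawal, all 10 formative genes were called lower in 48 h –dox, against 11.5% of all genes. All 10 were also called lower in 48 h +dox, where the share of all genes was not computed. Their median log2 ratio there was -3.19, and that of all genes tested was 0.01.

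After 96 h of differentiation fewer members were called. In 96 h +dox, 3 of 6 members tested were called higher than in 96 h –dox, against 6.67% of genes, and 1 was called lower, against 11.1%. Tfcp2l1 was at 22.7 FPKM with dox and 4.11 without (5.54-fold), Nanog at 8.63 and 2.13 FPKM (4.05-fold) and Esrrb at 4.06 and 1.98 FPKM (2.05-fold). The call of Esrrb was lost with the conditions scaled to the same sum or with 1 FPKM added. Tbx3 went the other way, from 4.99 to 1.53 FPKM (3.25-fold lower). Zfp42 (7.26 and 8.54 FPKM) and Nr5a2 (1.07 and 0.668 FPKM) were not called, Nr0b1 was under 1 FPKM in both, and Prdm14 was listed at 0 with dox. The trophoblast markers move with the fall of Tbx3, as 7 of 8 were lower in +dox (sum 337 FPKM without and 96.5 FPKM with dox), and their part in it was not tested. Nanog in 96 h +dox was below its level at the end of withdrawal (14.5 FPKM). Tfcp2l1 was above its own (1.48 FPKM) and held 70.8% of its 0 h –dox level, while the other 7 members held between 0% and 7.22%.

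**Figure D4:**
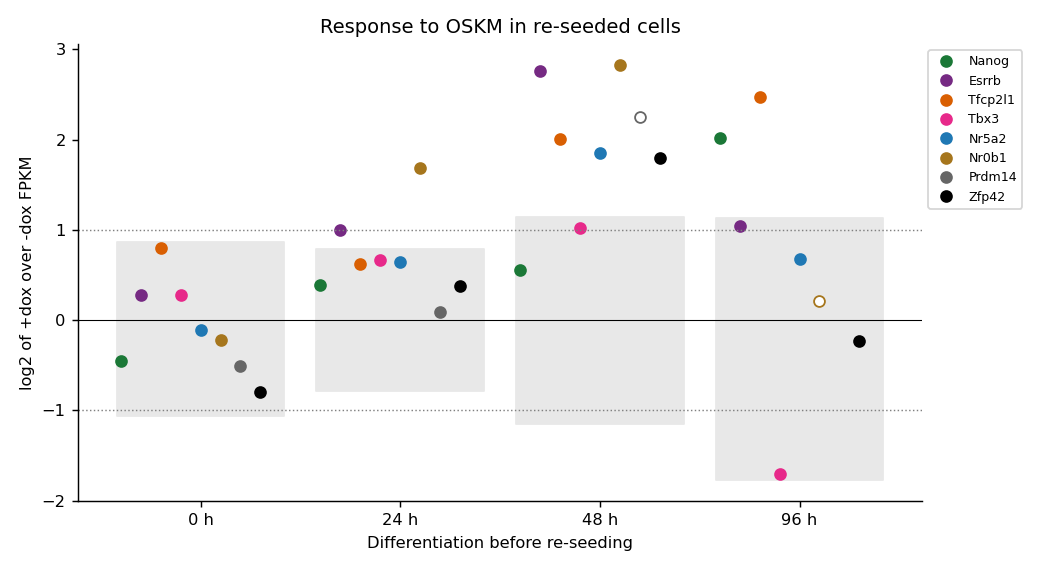
log2 ratio of FPKM in +dox over –dox for each member, by hours of differentiation before re-seeding. Grey boxes span the 5th to 95th percentile of all genes that reached 1 FPKM, dotted lines mark 2-fold, and open points are members under 1 FPKM in both conditions, while Prdm14 at 96 h, listed at 0 with dox, has no point. At 24 h Nr0b1 (1.69) and Esrrb (1.00) lie above the box. At 48 h the values of Nr0b1 (2.83), Esrrb (2.76), Tfcp2l1 (2.01), Nr5a2 (1.85) and Zfp42 (1.80) lie above the box, as does the open point of Prdm14, and at 96 h Tfcp2l1 (2.47) and Nanog (2.02) do.

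The way members moved together differed between withdrawal and re-seeding. Pearson's r of log2(FPKM + 1) over all 15 conditions ran from 0.655 to 0.978 over the 28 pairs of members, with a median of 0.828. The conditions share cells and a common decline with differentiation, so these are descriptions with no test. In the 7 withdrawal timepoints the lowest r was between Nanog and Nr0b1 (0.445), the member with a late rise and the member with an early one, and the highest was between Tfcp2l1 and Prdm14 (0.992). In the 8 re-seeded conditions Tfcp2l1 stood apart, with r from 0.587 (Zfp42) to 0.707 (Nr5a2) with the other 7 members. The 21 pairs without Tfcp2l1 ran from 0.732 to 0.986 there. Nr0b1 and Zfp42 moved alike in both, with r of 0.980 and 0.978.

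**Figure D5:**
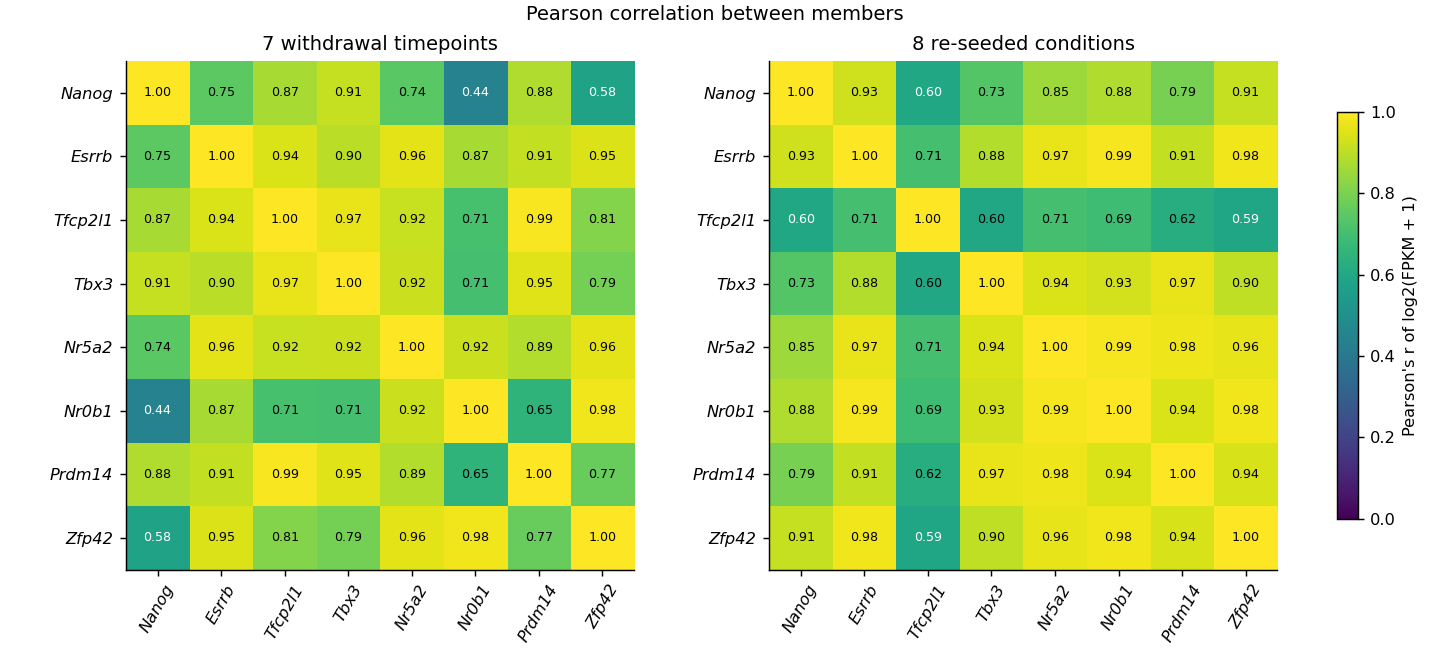
Pearson's r of log2(FPKM + 1) between each pair of members over the 7 withdrawal timepoints (left) and the 8 re-seeded conditions (right), on one colour scale from 0 to 1. On the left the row of Nanog holds the lowest values (0.445 with Nr0b1, 0.577 with Zfp42), and on the right the row of Tfcp2l1 does (0.587 to 0.707).

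Among the 9069 genes compared that reached 10 FPKM, the 3 most like each member over the 15 conditions were named by the same measure. Zfp42 and Nr0b1 were each other's nearest (r = 0.978), followed for Zfp42 by Spp1 (0.974) and Sox2 (0.971) and for Nr0b1 by Ssbp4 (0.970) and Pmel (0.963). Tbx3 was most like Mapt (0.971), Tet2 (0.960), a 5-methylcytosine dioxygenase, and Jam2 (0.957). Nr5a2 was most like D230025D16Rik (0.983), Calcoco2 (0.983) and Tcl1 (0.967). Esrrb was most like Krt42 (0.975), Rfx2 (0.973) and Wdtc1 (0.971), and Prdm14 most like Alpl (0.965), which encodes the alkaline phosphatase used to stain pluripotent colonies, 2310043M15Rik (0.959) and Vwf (0.954). Tfcp2l1 was most like Serpinb6c (0.977), Syngr1 (0.948) and Ephx1 (0.939). In 96 h +dox, where Tfcp2l1 was high, Serpinb6c was at 3.55 FPKM against 0.761 without dox, Ephx1 at 13.2 against 1.86 FPKM and Syngr1 at 57.6 against 36.5 FPKM, in a condition that the correlation itself used. Nanog had the least similar neighbours, Nid2 (0.917), Fastkd1 (0.889) and Dact2 (0.883).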

How the data were processed

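RNA-seq of polyadenylated RNA was made on 30 samples in 15 conditions, grouped by the sample titles. Per the paper's methods and the submitters' processing notes, the authors aligned with TopHat 2.0.14 (mm10) and used Cuffquant and Cuffdiff of Cufflinks 2.2.1 on Gencode M4, keeping transcripts from 200 bp upwards in 6 biotypes. The deposited values are FPKM, in which the authors combined both replicates of a condition, and the library normalization was not given in the sources used here. FPKM divides by annotated length, so a wrong transcript length shifts a gene in all conditions alike. The 5 columns of the authors' own gene groups and dox calls were not used. No counts or replicate values were used, so no test was run and the depth behind a value is known only from its lowest steps, taken as the 5th percentile of value times length over genes with 1 transcript of at least 2500 bases. Values were used unscaled, as median-ratio factors ran from 0.99 to 1.03.

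A gene was called at a plain ratio of at least 2 with the higher value at least 1 FPKM, and the share of all genes so called stands beside the first count of members called in each comparison and direction. List medians used log2 with 0.1 FPKM added, and correlations log2 with 1 added. The calling step was tested on simulated data. Positions came from Gencode M21 on mm10 and promoters from RefSeq. The text names the members, the genes of fixed lists and, for each member, the 3 genes with the highest r among genes reaching 10 FPKM. Members and lists were chosen with earlier results of these data known. Python 3.11.15, numpy 2.4.6, pandas 2.3.3 and matplotlib 3.10.9 were used. Alternatives changed the fold, the minimum, the scaling, the pseudocount, the correlation and the promoter window.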

Additional observations from a re-analysis of the deposited data

How the results depend on the processing

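No value carries a replicate error, the depth in reads is unknown, and low values such as Prdm14 after 24 h rest on few steps. No paired analysis was possible because each deposited column combines both replicates, and for the same reason no replicate could be left out. Of 20 member counts under 9 alternatives each, 161 values were within 1.5 times the reported count and 19 were not. Of 508 alternative values for 127 member ratios, 493 kept their side of the threshold. No called ratio could have changed direction, since the added FPKM cannot change a sign and the scalings moved ratios by less than 2-fold. Ratios that were not called could change direction and still count as kept. The cause of a move was not tested beyond the setting itself.

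With both values at least 1 FPKM, 5 members were lower at 96 h than at 0 h, 5 were lower in 96 h –dox with 0 h –dox as reference, and 1 was higher at 72 h than at 48 h. With the higher value at least 5 FPKM, 1 was higher at 72 h, 0 were higher in 96 h –dox than at 96 h, and 0 were lower in 96 h +dox. With no minimum, 4 were higher in 96 h –dox than at 96 h and 2 lower in 96 h +dox. At 1.5-fold, 3 were lower in 48 h –dox than at 48 h, 2 lower in 96 h –dox than at 96 h, 1 higher in 0 h +dox and 5 higher in 24 h +dox. At 3-fold, 0 were lower in 48 h –dox, 0 higher in 96 h –dox and 1 higher in 24 h +dox. In 24 h +dox 1 was higher with median-ratio scaling, scaling to the same sum, or 0.1 or 1 FPKM added.

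Of the 3 genes most like a member, 1 remained by Spearman's rho for Nanog, Tbx3, Nr0b1 and Zfp42 and 0 for Prdm14. Over the 7 withdrawal timepoints alone 1 remained for Nr5a2 and 0 for the other 7 members. With 0.1 FPKM added 1 remained for Prdm14, and with genes of at least 1 FPKM 1 remained for Tfcp2l1 and Prdm14.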

Other observations

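Markers of other cell types were high in the cells re-seeded after 96 h, in which 5 of the 8 naive factors were under 5 FPKM with and without dox. All 8 trophoblast markers were called higher in 96 h –dox than at the end of 96 h of withdrawal. Krt7, a keratin of simple epithelia and trophoblast, stood at 158 FPKM in 96 h –dox and 14.4 FPKM at 96 h. Hand1, a basic helix-loop-helix factor of trophoblast giant cells and mesoderm, was at 38.2 and 0.590 FPKM, and Tfap2c, which trophoblast and germ cells share, at 82.5 and 12.3 FPKM. With dox the same genes were at 65.9, 1.76 and 16.6 FPKM. The sum of the fibroblast list was also higher in 96 h –dox, at 441 FPKM against 94.5 FPKM at 96 h. Of its 9 tested markers 5 were called higher (12.4% of all genes) and 2, Thy1 and Dcn, lower (11.2%). Vim alone was at 299 FPKM against 63.3 FPKM. Elf5 and Cdx2, defining factors of trophoblast stem cells, were low in 96 h –dox, at 3.44 and 1.27 FPKM, and Tpbpa, of the spongiotrophoblast, was at 1.12 FPKM. No test was possible on any of these values.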
